A study of Mus musculus with 8 samples.

Results

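The 92 genes described here are the cadherins and protocadherins of the mouse: every row with the biotype protein_coding whose name is Cdh followed by digits, or begins with Pcdh, among the 51826 gene rows of the tables. They fall into 23 cadherins, 14 Pcdha, 22 Pcdhb and 21 Pcdhg genes of the 3 protocadherin clusters, and 12 other protocadherins. Pcdhgb8, annotated as a polymorphic pseudogene, did not meet the rule. The RNA came from fetal hypothalamus at embryonic day 14.5 in the C57BL/6 strain. Cells of the Ptf1a lineage, made fluorescent by Cre acting on the Ai9 reporter, were sorted as RFP-positive after papain dissociation, and dead cells were left out with propidium iodide. There were 4 het libraries (Ptf1a cre/+; Ai9/+, libraries 1 to 4) and 4 homo libraries (Ptf1a cre/cre; Ai9/+, libraries 9 to 12). Both genotypes carry the reporter and at least 1 cre allele at Ptf1a, and the homo cells are the knockout. RFP marks cells by their history of Cre activity, so a sorted cell need not express Ptf1a at the time of sorting. The labels do not say whether each library is a separate embryo. Reads of Xist and Ddx3y, given below, differ within each genotype, so not all 4 of its libraries can be repeats of the same sample. Some of them could still be technical replicates, and the p-values reflect differences among libraries.

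Cadherins are calcium-dependent adhesion receptors of the cell surface. Classical cadherins bind like partners on the facing cell and are tied to actin through catenins, and which of them a young neuron carries helps to set with whom it sorts and aggregates. Clustered protocadherins are chosen in part at random from arrays of promoters, so that neighbouring neurons carry different sets, and they act in self-avoidance and in neuron survival. Each Pcdha and Pcdhg isoform joins its own large variable exon to constant exons shared by its cluster, whereas Pcdhb genes consist of a variable exon without shared constant exons.

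The libraries held 2502387 to 3009181 exon reads each, of which 83.9% to 86.0% stood in the column of unique reads, a term the sources used here do not define. All 92 members together took 59464 exon reads over the 8 libraries, 0.269% of all exon reads. Ptf1a itself had 1 read in all (het library 3), so its level does not check the genotype labels at this depth. Markers of neurons (8 listed) summed to between 6109 and 7875 CPM, the exon reads scaled to a common library size, in every library, and 5 of them were called higher and 1 lower in homo. The 12 hypothalamic markers summed to between 1074 and 1653 CPM, with Isl1 called higher and Nkx2-1, Hmx2 and Hmx3 lower in homo. The same test called 6.96% of all 12257 genes tested higher and 6.12% lower. With an offset for the GC content of transcripts, of the marker calls only those of Isl1 (edgeR adjusted p = 0.00484) and the neuronal Elavl3 (0.0232) remained. With that offset 0.946% of all genes were called. Markers of telencephalon summed to 163 to 208 CPM in the het and 6.67 to 186 CPM in the homo libraries. Progenitor markers gave 573 to 965 CPM in het and 693 to 1191 CPM in homo, erythroid markers 4.11 to 106 and 3.16 to 87.9 CPM, myeloid markers 1.87 to 14.5 and 0.702 to 22.8 CPM, and pituitary markers 0 to 7.26 and 1.40 to 15.3 CPM. Xist exceeded 1000 reads in 1 het library (4) and 3 homo libraries (9, 11 and 12). Ddx3y, on the Y chromosome, had 37, 40, 71 and 0 reads in het and 4, 62, 0 and 0 reads in homo. The makeup of the groups by Xist and Ddx3y, and so by fetal sex, differs. In sorted bulk cells, fewer cells of a type and less RNA per cell cannot be told apart.

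Levels between genes were compared per length, in the deposited RPKM (exon reads scaled to exon length and library size). Cdh2, the N-cadherin of the neural tube, stood far above the rest at 26.3 ± 7.58 RPKM (SD, n = 8), and it was above the next gene in 8 of 8 libraries. It took 27.4% of all reads on the 92 genes, and the 10 members with the most reads took 74.1%. Cdh4, the R-cadherin, followed at 8.47 ± 2.34 RPKM and exceeded Pcdh17 (6.70 ± 1.01 RPKM) in 7 of 8 libraries. Cdh22 (5.07 ± 1.95), Pcdh19 (4.87 ± 1.12) and Pcdh1 (4.81 ± 1.26 RPKM) did not separate: each exceeded the next in 4 of 8 libraries, except Pcdh1, which was above Pcdh10 in 8 of 8. Pcdh10 (3.81 ± 0.68), Pcdh9 (3.50 ± 1.54), Cdh6 (3.33 ± 1.06) and Pcdh8 (2.98 ± 1.06 RPKM) formed the next group, with neighbours in that order exchanging places in 2 or 4 of the 8 libraries. Counting unique exon reads alone, scaled to exon length and unique library size, left Cdh2 (89.9), Cdh4 (34.5), Pcdh17 (27.9) and Cdh22 (20.3) in the same order and put Pcdh8 (8.83) again in place 10. The clustered genes had at most 1.53 RPKM (Pcdhb17), below every member named so far. They are not ranked within Pcdha or Pcdhg, where the share of unique reads changes in steps along the cluster.

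The comparison of homo with het libraries asks which genes of the lineage depend on Ptf1a. Of the 92 members, 59 passed the filter on low counts and were tested, and 3 were called at an adjusted p under 0.05 in edgeR's quasi-likelihood test: Cdh2 and Cdh6 rose and Pcdh8 fell. That is 5.08% of the tested members, where the same test called 13.1% of all 12257 genes tested (1603 genes: 6.96% higher and 6.12% lower). At an unadjusted p under 0.05 stood 15 of the 59 members, 7 higher and 8 lower, or fewer by share than the 29.3% of all genes. The CPM of the genotypes did not overlap for 10 members, 16.9% of the 59, against 19.6% of all tested genes (10.3% higher and 9.34% lower). Those were Cdh2, Cdh6, Pcdhb6, Pcdhb14, Pcdhb15 and Pcdhb18, higher in homo, and Cdh20, Pcdh8, Pcdhga5 and Pcdhgc3, lower in homo. The median log2 fold change was 0.12 over the 59 members and 0.04 over all genes tested.

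**Figure D1:**
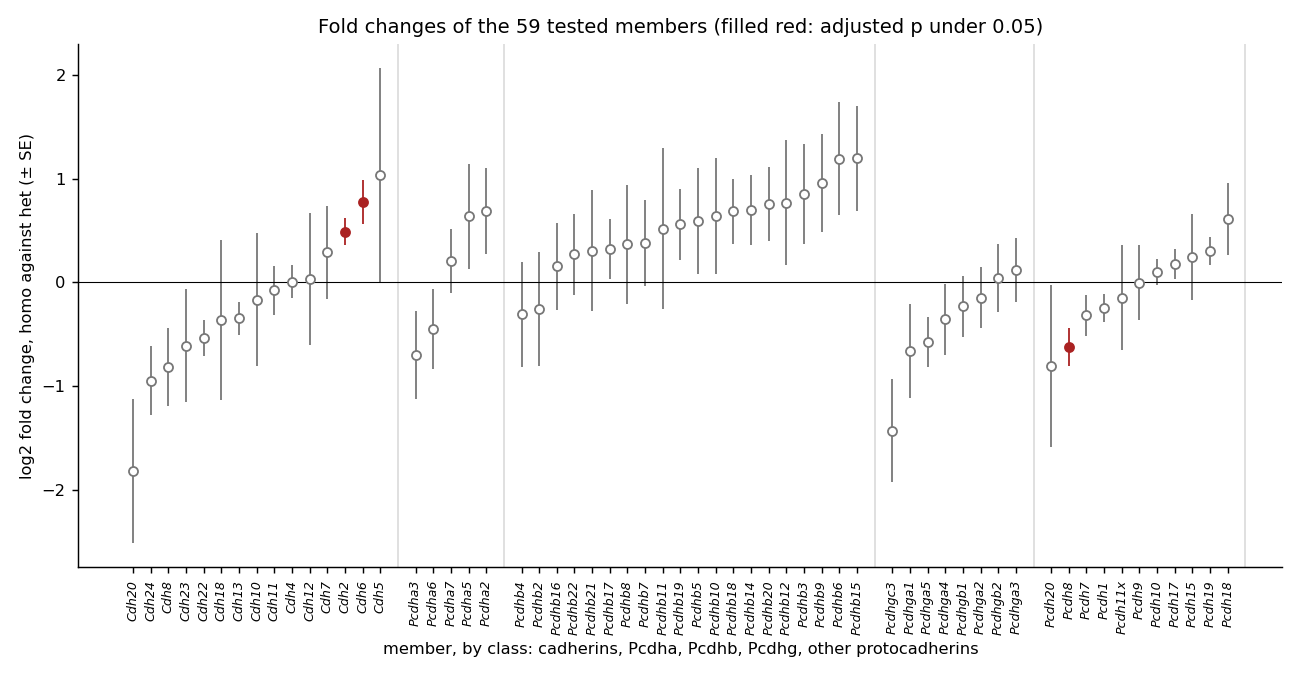
Log2 fold change of homo against het (vertical axis, with its standard error as bars) for the 59 tested members, ordered by value within each class along the horizontal axis. Filled red points are the 3 called members, and 18 of the 20 Pcdhb genes lie above 0 without passing the threshold.

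Among the type I cadherins, Cdh2 (ENSMUSG00000024304, mm10 chr18:16588877-16809246, minus strand), which holds the adherens junctions of the neuroepithelium, rose. It had 730, 636, 617 and 520 CPM in the het libraries and 996, 877, 773 and 863 CPM in the homo libraries. Every homo library lay above every het library, with het library 1 and homo library 11 nearest to each other. The log2 fold change was 0.49 ± 0.13 (SE), with an adjusted p of 0.0258 in edgeR's quasi-likelihood test. With unique exon reads it was 0.42 (edgeR adjusted p = 0.0334). Cdh2 was not called with the 1 CPM filter (edgeR adjusted p = 0.0843) or with no filter (0.141). The call was lost, with edgeR adjusted p-values of 0.0701, 0.0501, 0.0719, 0.0999, 0.0692 and 0.0611, when het library 2, 3 or 4 or homo library 9, 10 or 12 was left out in turn. With an offset for the GC content of transcripts the log2 fold change of Cdh2 was 0.07 (edgeR adjusted p = 0.896), and with intron reads added to exon reads it was -0.22, at the median of -0.22 that the 12239 shared genes took in that fit.

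Cdh4, which acts in neurite outgrowth and in brain compartments, was as abundant in both genotypes, with 215 ± 23.4 CPM in het and 216 ± 49.0 CPM in homo (n = 4 each), a log2 fold change of 0.01 ± 0.16 that took either sign under other settings. Cdh15, the M-cadherin of muscle, had 27 reads in all, 11.1% of them unique.

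Among the 13 type II cadherins, which differ from type I in the way their outer domains dock, 11 were tested. Cdh6, first known from kidney and present in parts of the embryonic brain, rose: it had 19.8, 23.7, 23.1 and 26.6 CPM in het and 38.6, 31.1, 52.4 and 37.7 CPM in homo. The genotypes did not overlap, and the homo libraries spread more widely than the het ones. The log2 fold change was 0.78 ± 0.21 (edgeR adjusted p = 0.0267), and 0.75 with unique reads (edgeR adjusted p = 0.0299). The call was lost without het library 1 (0.0726) or 2 (0.0691), or homo library 9 (0.0565), 11 (0.0968) or 12 (0.0549; each an edgeR adjusted p), and the GC offset gave 0.38 (edgeR adjusted p = 0.411). Cdh6 was not called with the 1 CPM filter (edgeR adjusted p = 0.0622) or with no filter (0.0860).

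Cdh22, a cadherin of pituitary and brain, was the most abundant type II member. It had 75.4, 91.6, 67.0 and 72.3 CPM in het and 70.2, 49.7, 46.2 and 45.5 CPM in homo. Homo library 9 lay within the het range and the other 3 homo libraries below it. Total exon reads gave a log2 fold change of -0.53 ± 0.17 with an edgeR adjusted p of 0.0581, and unique exon reads -0.56 with an edgeR adjusted p of 0.0421, so that Cdh22 was called lower with unique but not with total counts at the settings used throughout. With total counts it was also called by DESeq2 (-0.57, adjusted p = 0.0345), and by edgeR with the 1 CPM filter (adjusted p = 0.0415) or no filter (adjusted p = 0.00728). Of 27 members tested with unique reads 3 were called (Cdh2, Cdh6 and Cdh22), 11.1% of them against 14.2% of all 11203 genes. Without homo library 9 the total-read value was -0.75 (edgeR adjusted p = 0.0178), without het library 3 it was -0.64 (edgeR adjusted p = 0.0312), and with the GC offset it was -0.06.

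The start regions of Cdh6, Cdh22 and Pcdh8, called with total or unique reads, are shown (that of Cdh2, also called, is not used here) because the protein whose loss was studied, Ptf1a, is a basic helix-loop-helix factor, a class that binds the E-box CANNTG. They are the 250 bases before the start site in RefSeq (GRCm38.p6), each given on the gene's own minus strand: Cdh6 at chr15:13173676-13173925, Cdh22 at chr2:165234738-165234987 and Pcdh8 at chr14:79771313-79771562. Capitals mark CANNTG, searched on both strands, which are the same for this palindromic pattern.
Cdh6: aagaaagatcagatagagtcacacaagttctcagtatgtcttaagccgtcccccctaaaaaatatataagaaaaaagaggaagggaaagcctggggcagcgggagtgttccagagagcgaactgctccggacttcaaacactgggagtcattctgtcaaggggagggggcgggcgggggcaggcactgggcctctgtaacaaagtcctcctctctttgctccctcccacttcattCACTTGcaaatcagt
Cdh22: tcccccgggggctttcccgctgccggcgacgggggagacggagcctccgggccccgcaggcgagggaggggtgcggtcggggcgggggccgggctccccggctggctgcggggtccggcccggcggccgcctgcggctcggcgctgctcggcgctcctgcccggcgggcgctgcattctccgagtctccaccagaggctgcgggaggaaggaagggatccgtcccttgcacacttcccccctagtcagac
Pcdh8: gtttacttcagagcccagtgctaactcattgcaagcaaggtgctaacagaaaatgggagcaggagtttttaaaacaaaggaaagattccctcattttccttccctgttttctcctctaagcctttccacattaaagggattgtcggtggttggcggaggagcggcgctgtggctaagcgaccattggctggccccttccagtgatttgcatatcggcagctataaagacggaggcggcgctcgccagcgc
Cdh6 held 1 match, CACTTG, close to its start, and Cdh22 and Pcdh8 held none, whereas 66.2% of all 32851 such windows held at least 1. TGGGAA, the core that RBPJ, the partner of Ptf1a, recognises, was searched on both strands and was in none of the 3 windows and in 21.6% of all. The windows of Cdh6 and Pcdh8 were 51.2% G or C and that of Cdh22 77.6%, where the median of all windows was 52.4%. The deposited gene ends lie 36, 116 and 0 bases from these start sites for Cdh6, Cdh22 and Pcdh8.

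Cdh24, a type II cadherin that binds catenins, had 17.9, 28.1, 30.8 and 20.8 CPM in het and 20.0, 7.67, 14.7 and 7.85 CPM in homo. Homo library 9 lay among the het values and the other 3 below them. Its log2 fold change of -0.95 ± 0.33 did not pass (edgeR adjusted p = 0.0738). It passed without homo library 9 (-1.31, edgeR adjusted p = 0.0266) and with no filter (-1.07, edgeR adjusted p = 0.0163). Leaving out any other single library gave edgeR adjusted p-values from 0.0726 to 0.184. With the GC offset the value was -0.52 (edgeR adjusted p = 0.469). Cdh24 overlaps 2 annotated genes of the other strand, which together had 16 exon reads.

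Cdh20, chosen for mention after its values were seen, was rare, with 11, 16, 10 and 21 reads in het and 1, 2, 5 and 7 reads in homo. All homo libraries lay below all het libraries, at a log2 fold change of -1.82 ± 0.70 (edgeR adjusted p = 0.0982). With the intron reads added it was 0.64, in the other direction. The other tested type II members were Cdh5, Cdh7, Cdh8, Cdh10, Cdh11, Cdh12 and Cdh18, and none of them passed. Over the 11 tested type II genes 4 values were above 0 and 7 below, with a median of -0.17. Of the atypical cadherins, Cdh13, the T-cadherin held by a lipid anchor, had 55.5 ± 3.51 CPM in het and 43.6 ± 5.30 CPM in homo (log2 fold change -0.35 ± 0.16, edgeR adjusted p = 0.158), and Cdh23, which forms the tip link of hair cells with Pcdh15, did not pass either.

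**Figure D2:**
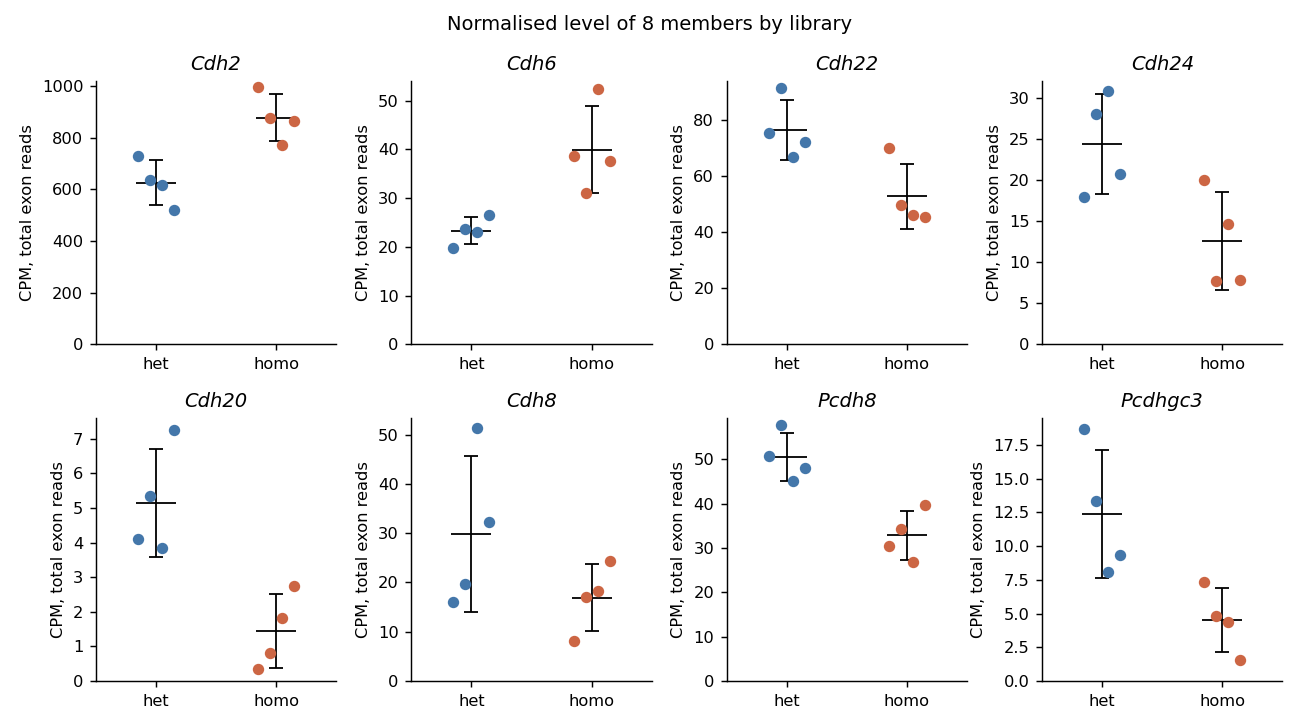
CPM of total exon reads (vertical axes, from 0) for 8 members, 1 point per library, het in blue and homo in orange, with the mean and SD of 4 libraries in black. The genotypes do not overlap for Cdh2, Cdh6, Cdh20, Pcdh8 and Pcdhgc3, and 1 homo library of Cdh22 and of Cdh24 lies among the het points.

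The 12 other protocadherins are scattered over the genome, and delta protocadherins, their largest group, are expressed in restricted patterns in the embryonic brain. Pcdh8 (ENSMUSG00000036422, mm10 chr14:79766775-79771312, minus strand), of the delta2 group, whose rat homologue draws Cdh2 into the cell after neuronal activity, was the only one called and fell. It had 50.8, 57.8, 45.1 and 48.1 CPM in het and 30.5, 34.3, 26.8 and 39.6 CPM in homo. The genotypes did not overlap, with homo library 12 the nearest to the het values. The log2 fold change was -0.62 ± 0.18 (edgeR adjusted p = 0.0363). With unique reads it was -0.59 and did not pass (edgeR adjusted p = 0.0959), and 72.7% of Pcdh8 reads were unique. An antisense gene, Gm9748, overlaps Pcdh8 and had 3 exon reads in all. The call was lost without het library 1 (0.0699), 2 (0.110) or 4 (0.0545), or homo library 9 (0.0597), 10 (0.0720) or 11 (0.0996; each an edgeR adjusted p), and the GC offset gave -0.24 (edgeR adjusted p = 0.572).

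The more abundant delta protocadherins differed little. Pcdh17 had 215 ± 27.3 CPM in het and 243 ± 45.9 CPM in homo, and Pcdh10, 208 ± 18.2 and 223 ± 25.2 CPM. Pcdh1, of the delta1 group, had 162 ± 24.3 and 136 ± 12.5 CPM (log2 fold change -0.25 ± 0.14, edgeR adjusted p = 0.237). Pcdh19, the X-linked delta2 member that acts together with Cdh2 and whose loss causes epilepsy in humans, had 158, 149, 148 and 195 CPM in het and 227, 209, 185 and 180 CPM in homo. Its highest het value came from library 4, the only het library with over 1000 Xist reads. Homo library 10, the only homo library without that many, had 209 CPM, above libraries 11 and 12 and below library 9. The log2 fold change of Pcdh19 was 0.30 ± 0.13 (edgeR adjusted p = 0.147). With the GC offset the signs of Pcdh17, Pcdh10, Pcdh19 and Pcdh1 turned (-0.39, -0.13, -0.23 and 0.13).

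Pcdh18, which binds the Reelin pathway adaptor Dab1, had 16.4 ± 4.46 and 25.2 ± 13.8 CPM, of which the highest, 45.5 CPM, was in homo library 12. Pcdh9 and Pcdh11x, both delta1 members named after their values were seen, differed more within than between genotypes. Pcdh9 had 45.2, 45.5, 163 and 90.6 CPM in het and 63.5, 84.4, 60.5 and 135 CPM in homo, and Pcdh11x, 4.86, 6.68, 37.4 and 23.9 CPM in het and 13.0, 12.1, 22.7 and 17.7 CPM in homo. In both genes het library 3 was the highest and het library 1 the lowest of all 8.

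The members' direction went with the GC content of their transcripts. Of the 43 tested members below the median GC content of tested genes (50.5%), 29 were higher and 14 lower in homo, with a median log2 fold change of 0.29, and all 6119 tested genes on that side had a median of 0.31. Of the 16 members above it, 5 were higher and 11 lower, with a median of -0.30 against -0.23 for all genes of that side. The 59 tested members include 20 Pcdhb genes, 18 of them higher in homo. Only 31 of the 4398 Pcdhb reads were unique, so those 20 values are not taken as separate measurements. The counts by GC side are therefore not counts of independent genes. The called genes of the whole table had a median GC content of 44.2% when higher and 57.0% when lower, and Cdh2 (44.5%), Cdh6 (44.4%), Pcdh8 (59.6%) and Cdh22 (62.2%) lay on those sides. With the GC offset none of the 59 members tested with total reads and none of the 27 tested with unique reads was called, where 0.946% (116 genes) and 1.41% of all genes were. At an unadjusted p under 0.05 the test without the offset had 15 members, and DESeq2 without the offset called 4 (Cdh2, Cdh6, Cdh22 and Pcdh8) where it called 25.1% of 7537 genes. Genotype and the GC trend of these libraries cannot be told apart.

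**Figure D3:**
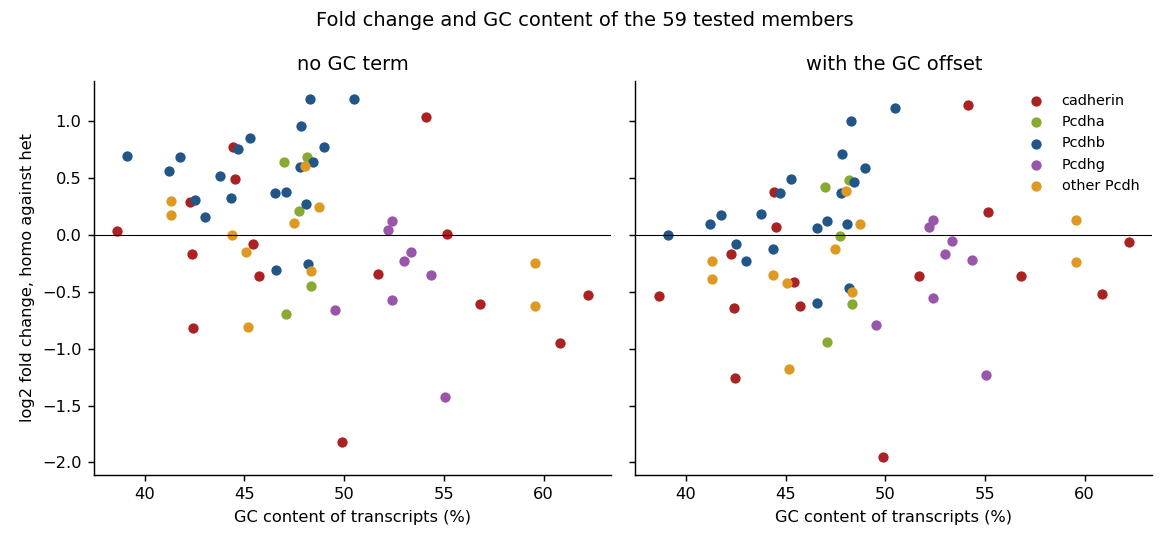
Log2 fold change of homo against het (vertical axes) against the GC content of transcripts in percent (horizontal axes) for the 59 tested members, coloured by class, without a GC term on the left and with the GC offset on the right. On the left 29 of 43 members under 50.5% GC lie above 0, and on the right 20 of 43. The 59 members include the tested Pcdhb genes, whose values are not taken as separate measurements.

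The 3 clusters lie one after another on chromosome 18. None of their 33 tested genes was called. The Pcdhb genes had the most even shift: 18 of 20 tested members were higher in value in homo, with a median log2 fold change of 0.58 and a range of -0.31 to 1.20. Summed over all 22 genes, Pcdhb had 169, 124, 180 and 194 CPM in het and 202, 245, 270 and 246 CPM in homo, without overlap of the genotypes. Taken singly, 4 of the 20 (20.0%) were without overlap, all higher in homo. Of all tested genes 19.6% were without overlap and 10.3% higher. Of 4398 Pcdhb reads only 31 were unique, and no Pcdhb gene could be tested with unique reads. The 20 values are therefore not taken as separate measurements. Every Pcdhb gene failed the threshold on its own, with edgeR adjusted p-values from 0.133 to 0.842. Pcdhb15 (2.24, 5.01, 5.39 and 2.42 CPM against 8.07, 6.46, 8.43 and 11.8 CPM; log2 fold change 1.20 ± 0.51), Pcdhb6 (1.19 ± 0.54), Pcdhb18 (0.69 ± 0.31) and Pcdhb20 (0.76 ± 0.35) had the smallest p-values. The highest by deposited RPKM were Pcdhb17, Pcdhb20, Pcdhb7 and Pcdhb19, at 0.762 to 1.53 RPKM. With the GC offset the median was 0.15 with 15 of 20 values above 0, and with intron reads added it was 0.15, where the median was -0.22 over the 12239 shared genes and 0.09 over all 19551 genes of that fit.

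The Pcdhg genes went the other way in value. Summed over 21 genes they had 174, 154, 161 and 154 CPM in het and 122, 160, 124 and 128 CPM in homo, and homo library 10 overlapped the het range. Of 8 tested, 6 were lower, with a median of -0.29. The genes from Pcdhga1 to Pcdhga5 had 2759 reads of which 93 were unique, so their values are not taken as separate measurements either. Pcdhgc3, an isoform of the C type that lies at the end of the cluster, had 18.7, 13.4, 8.09 and 9.34 CPM in het and 7.37, 4.84, 4.40 and 1.57 CPM in homo. Every homo library was under every het library, at a log2 fold change of -1.43 ± 0.49 (edgeR adjusted p = 0.0687), which passed without het library 3 (0.0438) or homo library 9 (0.0413; edgeR adjusted p). All 187 reads of Pcdhgc3 were unique, and with the GC offset the value was -1.24. Pcdhga5 had 23.9, 22.4, 25.0 and 23.9 CPM in het and 11.2, 17.8, 15.4 and 19.6 CPM in homo (log2 fold change -0.57 ± 0.24, edgeR adjusted p = 0.133), and its groups did not overlap. Pcdhga3 (24.2 ± 11.7 and 26.3 ± 6.72 CPM), Pcdhgb2, Pcdhga4 and Pcdhga1 overlapped between the genotypes.

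The Pcdha genes summed to 55.2 ± 10.8 CPM in het and 56.8 ± 3.11 CPM in homo. Of 5 tested, 3 were higher and 2 lower. Pcdha2 to Pcdha7 had 1129 reads of which 25 were unique, so their values too are not taken as separate measurements. Pcdha2 had the smallest p-value, with 4.11, 7.69, 7.71 and 5.88 CPM in het and 10.2, 11.7, 6.96 and 12.2 CPM in homo (log2 fold change 0.69 ± 0.41), followed by Pcdha3 (-0.70 ± 0.43), while Pcdha6 (-0.45 ± 0.38), Pcdha7 (0.21 ± 0.31) and Pcdha5 (0.64 ± 0.50) were further from the threshold. Each of these edgeR adjusted p-values was 0.289 or more.

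How the reads of the clusters were assigned changed from gene to gene. Over the 8 libraries 89.5% of cadherin reads and 91.7% of the other protocadherin reads were unique, near the share of all genes, but 8.80% of Pcdha, 0.705% of Pcdhb and 16.3% of Pcdhg reads. The change came in steps along the chromosome. At a site 1000 bases inside each gene, 1 annotated gene span covered Pcdha1, and 33 of its 36 reads were unique. Between 2 and 9 spans covered Pcdha2 to Pcdha7, which had 1129 reads of which 25 were unique. Between 11 and 17 spans covered the 7 Pcdha genes from Pcdha8 to Pcdhac2, which had 51 reads of which 49 were unique. The same held in Pcdhg: 7 genes under 4 to 10 spans, from Pcdhga1 to Pcdhga5, had 2759 reads of which 93 were unique, and 14 genes under 11 to 25 spans, from Pcdhga6 to Pcdhgc5, had 439 reads of which 429 were unique. All 22 Pcdhb genes lay under 4 or 5 spans and had 4398 reads of which 31 were unique. So a median of 184.5 reads per gene for Pcdha2 to Pcdha7 stood next to a median of 5 reads per gene from Pcdha8 on, and levels of genes on either side of these steps are not comparable.

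**Figure D4:**
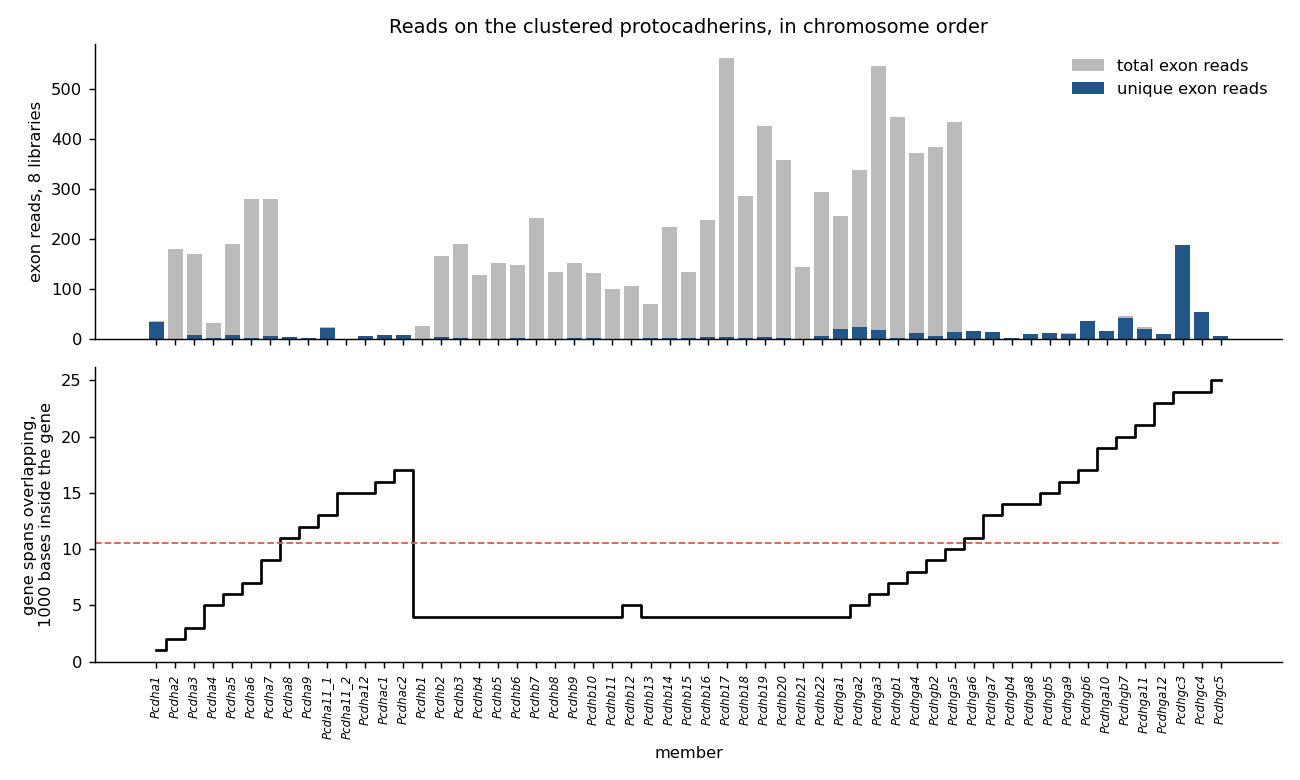
Upper panel, total (grey) and unique (blue) exon reads summed over 8 libraries for the 57 clustered members in chromosome order. Lower panel, the number of annotated gene spans that cover a site 1000 bases inside each gene, with a dashed line between 10 and 11. Genes under the line, other than Pcdha1, had almost no unique reads, and the reads of genes above it were almost all unique and, other than the 187 of Pcdhgc3, few.

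A trio of annotated protein-coding genes of unknown product, Gm42416 (mm10 chr18:36952741-37840200), Gm37013 and Gm37388, run across all 3 clusters and share this ground. Taf7, a general transcription factor gene on the other strand within these spans, had 94 to 253 reads per library of which 3 to 6 were unique, whereas Diaph1 just beyond them had 215 to 338 reads, all unique. The 3 long genes together took 207, 210, 429 and 466 intron reads in het and 329, 816, 645 and 697 in homo, all of them on Gm42416 in 6 of 8 libraries. In het library 1, Gm37388 took 175 of the 207, and in homo library 12, Gm37013 took 303 of the 697. The program that assigned the reads is not given in the sources used here, and its part in the steps was not tested.

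Unique shares overlapped between the genotypes for most members. Of 18 members with at least 20 reads in each library and a share that varied, 2 were without overlap and higher in homo (11.1%, where 3.33% of 4290 such genes were), and none without overlap and lower (2.42% of all). Pcdhb17 is the first of them, with no unique read in het and 4 of 561 reads unique in all. Cdh8, a type II cadherin of the developing forebrain and named after its values were seen, is the other: 57.8% ± 2.49 of its reads were unique in het (55.8% to 61.0%) and 82.7% ± 7.49 in homo (73.9% to 92.0%; n = 4 each, exact permutation p = 0.0286, two-sided, the smallest possible). Every gene without overlap takes this p, Pcdhb17 included. It adds no support for Cdh8, which was named after its values were seen. The difference of 24.8 percentage points in Cdh8 was number 3 among the 4290 genes, ordered from the most positive. The reads that were not unique numbered 19, 23, 55 and 41 in het and 6, 8, 4 and 10 in homo. The log2 fold change of Cdh8 was -0.82 ± 0.38 with total reads (edgeR adjusted p = 0.166) and -0.30 with unique reads (edgeR adjusted p = 0.664). Cdh8 overlaps 5 other annotated genes, which had 7 exon reads in all.

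A few members had uneven levels within a genotype, and they are set here beside markers of other cell types. The 9 endothelial markers summed to 11.2, 9.69, 171 and 28.4 CPM in het and 8.42, 41.2, 34.5 and 198 CPM in homo, so that het library 3 and homo library 12 stood apart. Cdh5, the VE-cadherin of blood vessels, had 2, 0, 71 and 15 reads in het and 5, 11, 35 and 124 reads in homo, and Pcdh12, an endothelial protocadherin, 0, 0, 16 and 10 reads in het and 1, 6, 19 and 29 reads in homo. Both were highest in homo library 12, with het library 3 next for Cdh5 and homo library 11 next for Pcdh12. The log2 fold change of Cdh5 was 1.03 ± 1.04 (edgeR adjusted p = 0.547), 3.01 without het library 3 and -0.38 without homo library 12. Cdh1, the E-cadherin of epithelia, had 62 reads in homo library 12 and at most 6 in any other, and Cdh3, the P-cadherin, 25 there and at most 4 elsewhere. That library also held 678 CPM of the 6 markers of choroid plexus and ependyma, against 4.21 to 31.2 CPM in the others, and Ttr alone made 624 of the 678 CPM (1589 reads). Of the other 5, Foxj1, Otx2, Aqp1 and Lmx1a were also highest there, at 7.46 to 15.7 CPM, and Kcnj13 was highest in het library 3 (8.09 against 7.85 CPM). Homo library 12 further held 226 CPM of mesenchymal markers against 7.02 to 68.5 CPM. The part of such cells in these levels was not tested. Leaving out het library 3 and homo library 12, a choice made after seeing the data, gave log2 fold changes of 0.49 for Cdh2 (edgeR adjusted p = 0.0528), 0.80 for Cdh6 (0.0567) and -0.77 for Pcdh8 (0.0283). With a term for libraries of over 1000 Xist reads, also chosen after seeing the data, none of the 59 members and 2.34% of all genes were called. Cdh2 then stood at 0.58 (edgeR adjusted p = 0.0695), Cdh6 at 0.59 (0.195) and Pcdh8 at -0.58 (0.165).

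**Figure D5:**
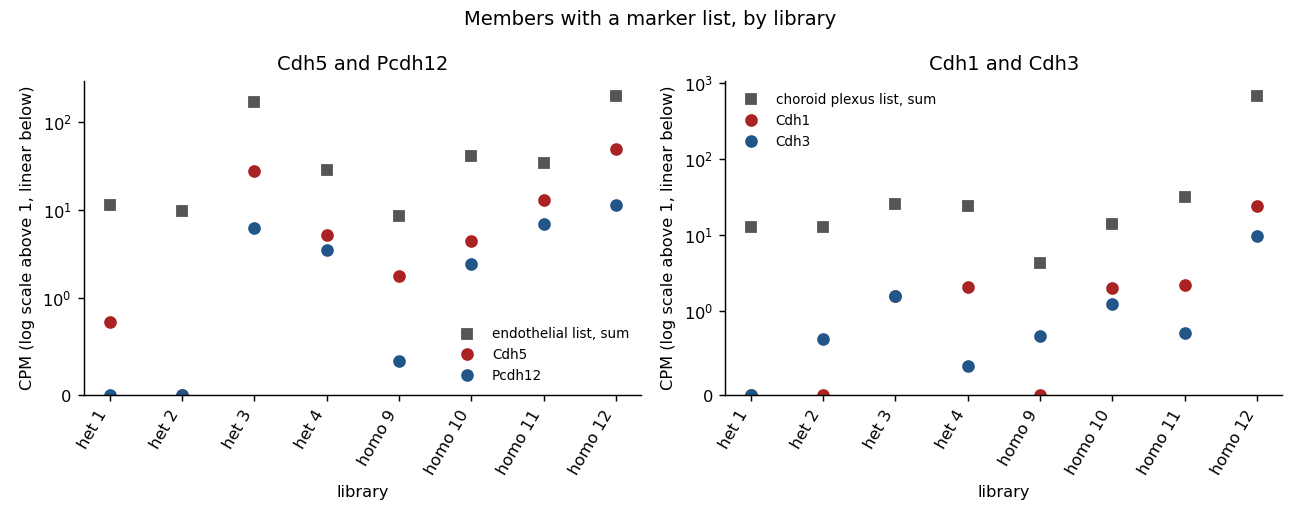
CPM per library (vertical axes, log scale above 1 and linear below) of Cdh5 and Pcdh12 beside the sum of the endothelial list (left), and of Cdh1 and Cdh3 beside the sum of the choroid plexus and ependyma list (right). Squares are the list sums and circles the members. On the left the endothelial sum and Cdh5 are highest in homo library 12 and het library 3. On the right homo library 12 is highest.

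The 33 members under the filter had 0 to 83 reads each over all libraries, with a median of 15. None was without overlap of the genotypes, and in an exact two-sided permutation test of log2(CPM + 1), which with 4 against 4 libraries cannot go below 0.0286, the smallest p was 0.0571 (Pcdhb13, 21 reads in het and 49 in homo). Pcdha11_2 had no read. Low members outside the clusters were Cdh1, Cdh3, Cdh9, Cdh15, Cdh16, Cdh17, Cdh19, Cdh26 and Pcdh12. At this depth 3 reads correspond to 0.997 to 1.20 CPM, below which a member cannot be told from 0, by counting error alone.

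Genes that work with the members were looked at by lists. Of the 7 catenins, which tie classical cadherins to actin, 6 were tested and none was called, with a median log2 fold change of -0.12. Ctnnb1, the beta-catenin that binds classical cadherins, had 673 ± 128 CPM in het and 550 ± 69.1 CPM in homo, and Jup, its close relative plakoglobin, 63.5 ± 11.2 and 46.1 ± 4.30 CPM (edgeR adjusted p = 0.0800). Of the other cadherin superfamily genes 13 of 27 were tested, 3 fell and none rose, with a median of -0.30. Over all 12257 genes tested, 6.12% were called lower and 6.96% higher. Dchs1, the partner of Fat4 in planar polarity, fell from 665 ± 87.97 to 371 ± 47.3 CPM (log2 fold change -0.84 ± 0.14, edgeR adjusted p = 0.00235). Celsr3 and Celsr2, cadherins with a receptor's membrane domain that act in planar polarity and axon tracts, fell from 501 ± 33.3 to 306 ± 36.7 CPM and from 381 ± 55.1 to 231 ± 14.7 CPM. With the GC offset none of the 3 was called (log2 fold changes -0.54, -0.40 and -0.32), where 0.946% of all genes were. With the Xist term all 3 were called, where 2.34% of all genes were.

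The counts of this paragraph stand beside shares over all 12257 genes tested, of which 6.96% were called higher and 6.12% lower. With the GC offset 0.946% of all genes were called in either direction, and with the Xist term 2.34%. All 16 listed regulators of the protocadherin clusters were tested, and 9 rose and none fell, with a median of 0.73. The 9 were Ctcf, which binds the cluster promoters and enhancers, the cohesin subunits Rad21, Smc1a, Smc3, Stag1 and Stag2, the cohesin release and binding factors Wapl and Pds5b, and Smchd1, a silencer of clustered genes. Smc1a went from 175 ± 51.4 CPM in het to 381 ± 68.4 CPM in homo (log2 fold change 1.13 ± 0.20, edgeR adjusted p = 0.00364). It was the only one of the list still called with the GC offset (0.90, edgeR adjusted p = 0.0193), where the list's median was 0.29, and Ctcf then stood at 0.29. With intron reads alone 8 of the 9, all but Smc3, had values below 0, from -0.73 for Smc1a to -0.046 for Wapl, where the median of the 10535 shared genes was -0.27. Smc1a is X-linked in the mouse, and with the term for libraries of over 1000 Xist reads it was still called (1.00, edgeR adjusted p = 0.0414), as was Pds5b (0.71, adjusted p = 0.0416), whereas the other 7 were not (adjusted p from 0.0780 to 0.165). Of the cytoplasmic effectors of protocadherins, 18 of 19 were tested, and Nckap1, of the WAVE complex that drives actin branching, rose (0.63 ± 0.14) while the kinase Src fell (-0.66 ± 0.13), with a median of 0.09. Of the genes of cadherin cleavage and turnover, 12 of 16 were tested, and Adam10, the protease that cuts Cdh2 and Pcdhg proteins, rose (0.45 ± 0.12) while Ncstn, of the gamma-secretase complex, fell (-0.59 ± 0.18), with a median of -0.01. With the GC offset no gene of these last 2 lists was called, and with the Xist term none either.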

How the data were processed

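Total RNA (10 ng) of sorted RFP-positive cells was made into libraries with the SMARTer Stranded Total RNA-Seq Pico kit and sequenced as paired reads of 36 bases on a NextSeq500, per the labels' protocols. The deposited tables, 1 per library, give whole-number counts of exon, intron and gene reads per gene, total and unique, and RPKM values computed by the authors, per the file headers. The builds are GRCm38 and mm10 per the submitters' processing notes, and the mapping and counting program is not given in the sources used here, nor whether strand was used.

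Total exon counts were fitted over all genes with edgeR 4.0.16 (R 4.3.3): filterByExpr, TMM scaling, glmQLFit and glmQLFTest, with Benjamini-Hochberg adjustment over 12257 genes and a threshold of 0.05. CPM uses the same scaling, and libraries held 2502387 to 3009181 exon reads. Members under the filter were compared by an exact two-sided permutation test of log2(CPM + 1). The members and lists were chosen with earlier results of these data known. In each class the text names members called with total or unique reads, the 4 highest by RPKM and the 4 with the smallest p. It names from the other lists those called and up to 2 more. In counts simulated for homo against het on 12257 genes, the test recovered 56% of 2-fold and 99% of 4-fold changes. The simulation gave every gene the same dispersion between libraries and no GC trend. These shares are therefore not the power of the test for single members. GC content is the median over a gene's GENCODE M21 transcripts, and the GC offset is a loess (span 0.3) on it of each library's deviation in log2 CPM (prior count 2). Positions of 6 members differ from GENCODE M21. Promoter sequences are from RefSeq, GRCm38.p6, where 22 of the 92 members had one. Alternatives were unique exon, gene and intron reads, RLE factors, DESeq2 1.42.0, other filters (none, or 1 CPM in 4 libraries), other pseudocounts (0.5 and 2 CPM) and leaving out each library. A term for libraries with over 1000 Xist reads and a fit without the 2 libraries richest in endothelial reads were added after seeing the data. Genes named outside the rule are Cdh1, Cdh3, Cdh5, Cdh8, Cdh13, Cdh20, Pcdh9, Pcdh11x and Pcdh12, chosen after their values were seen.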

Additional observations from a re-analysis of the deposited data

Results flagged for a closer look

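Among 76 sets of 4 libraries, each 1 named member in 1 genotype, 3 held a library far from the other 3. By chance such a gap comes in about 5% of sets. Some of these members, Cdh1 and Cdh3 among them, were named after their values were seen, so the count cannot be set against that share. Homo library 9 had 70.2 CPM of Cdh22, where the other homo libraries had 45.5 to 49.7 CPM. Homo library 12 had 24.3 CPM of Cdh1 against 0 to 2.20 CPM, and 9.81 CPM of Cdh3 against 0.702 to 1.21 CPM in the other homo libraries. The same library held the highest sums of choroid plexus, mesenchymal and endothelial markers.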

How the results depend on the processing

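The count of members called, 3 with total exon reads, was 0 with gene reads, 0 with intron reads alone, 0 with the GC offset, 0 with unique reads and the GC offset, 0 with the Xist term, 1 without both endothelium-rich libraries (Pcdh8) and 6 without a filter on low counts (Cdh1, Cdh8, Cdh22, Cdh24, Pcdh8 and Pcdhgc3). It was 3 with unique reads or RLE factors, 2 with the 1 CPM filter (Cdh22 and Pcdh8, without Cdh2 and Cdh6) and 4 with DESeq2 (Cdh22 added), and ranged from 0 to 4 when 1 library was left out. Without a filter 91 members were tested, and 7.27% of all 29537 genes were called. The 1 CPM filter left 69 members and called 9.46% of 16515 genes. Without both endothelium-rich libraries 58 members were tested, and 11.5% of 12178 genes were called. RLE factors called 12.9% of all genes, gene reads 0.0307% and intron reads 0.564%. When 1 library was left out, 5.71% to 16.3% of all genes were called. The count over all genes, 1603, was 6 with gene reads, 96 with intron reads, 116 with the GC offset, 158 with unique reads and the GC offset and 287 with the Xist term, and ranged from 734 without het library 2 to 2077 without het library 3. The cause was not tested. Shared genes had a median log2 fold change of -0.22 with gene reads, -0.27 with intron reads and -0.08 without a filter, against 0.04. No paired analysis was possible because the genotypes share no replicate numbers. The 33 members under the filter had too few reads for the test, the part of read assignment in the low counts of the clusters was not tested, and counting intervals cover counting error only.

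Of 1056 values of 59 named genes under alternatives, 811 kept direction and side of the threshold, 141 fell below it, 33 passed it and 71 changed sign. Among the 59, the main fit called 3 members. It also called 3, 9, 2 and 2 genes of the superfamily, regulator, effector and turnover lists. Only these could fall below the threshold, and every other gene kept its side by staying uncalled. The 811 are therefore no measure of how stable the calls were. The signs that changed are these log2 fold changes. With gene reads they were Cdh2 -0.22, Cdh4 -0.27, Pcdha7 -0.19, Pcdhb17 -0.32, Pcdhb7 -0.16, Pcdhga3 -0.29, Pcdhgb2 -0.21, Pcdh17 -0.20, Pcdh19 -0.074, Pcdh10 -0.36, Cdh20 0.64, Cdh13 0.10, Zeb1 -0.14 and Cbll1 -0.043. With intron reads alone the members were Cdh2 -0.63, Cdh4 -0.49, Pcdha6 0.19, Pcdha7 -0.19, Pcdh17 -0.10, Pcdh19 -0.11, Pcdh10 -0.49, Pcdh18 -0.12 and Cdh20 0.49. The other genes with intron reads were Pds5b -0.14, Smc1a -0.73, Wapl -0.046, Stag1 -0.19, Rad21 -0.37, Smchd1 -0.12, Stag2 -0.27, Ctcf -0.11, Nipbl -0.067, Nckap1 -0.31, Abi1 -0.10, Adam10 -0.10, Zeb1 -0.48 and Cbll1 -0.34. The GC offset gave Pcdha7 -0.0068, Pcdhb17 -0.12, Pcdh17 -0.39, Pcdh19 -0.23, Pcdh1 0.13, Pcdh10 -0.13, Abi1 -0.074 and Cbll1 -0.11, and with unique reads Pcdh17 -0.37, Pcdh19 -0.18, Pcdh1 0.15, Pcdh10 -0.13 and Abi1 -0.067. Cdh4 was -0.020 with unique reads, -0.015 with RLE factors, -0.12 without a filter, -0.091 with the 1 CPM filter, -0.028 with DESeq2 and -0.025 without both endothelium-rich libraries. Without a filter Pcdhga3 was -0.0034, Pcdhgb2 -0.085 and Pcdh10 -0.026, with the 1 CPM filter Pcdhgb2 was -0.053, and without the endothelium-rich libraries Pcdhga3 was -0.084. When 1 library was left out, Cdh4 ranged from -0.13 to 0.14, Pcdhga3 from -0.11 to 0.49, Pcdhgb2 from -0.17 to 0.29 and Cdh5 from -0.38 without homo library 12 to 3.01 without het library 3.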
